A study of Mus musculus with 10 samples.

Results

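A group of 4 of 10 Illumina arrays of mouse embryonic stem cells, called the second array set here, were set against the other 6, the first array set. The second set holds the arrays titled Sox17(+) 2, 3, 4 and 5, and the first set holds Sox17(-) 1 to 5 and Sox17(+) 1. The arrays were chosen by their own values, that is by the faint signal of olfactory, vomeronasal, taste and trace amine receptor probes, which ES cells are not known to use. Over 1357 such probes the rank correlation between arrays was 0.820 to 0.845 within the second set, 0.433 to 0.527 within the first set and 0.416 to 0.517 between them. Because the values chose the sets, each difference between them is a description and carries no test. A second split, called the arm, is not in the labels either, was set with results of these arrays known and served as a block: arm B holds Sox17(+) 4 and 5 of the second set and Sox17(-) 4, Sox17(-) 5 and Sox17(+) 1 of the first, and arm A holds the other 5 arrays.

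All 10 arrays measured total RNA of KH2, a mouse ES line built for doxycycline-driven transgenes, carrying a Sox17 transgene with a V5 tag. By their labels the Sox17(+) arrays are cells expressing Sox17-V5 after 48 h of doxycycline, and the Sox17(-) arrays are controls that were not induced. The second set therefore holds 4 arrays labelled induced and no control, and the first set holds 1 array labelled induced and 5 controls, so that the set and the labelled treatment cannot be told apart except through the array labelled Sox17(+) 1. The labels do not say whether replicates came from separate cultures, what the medium held, or which arrays were hybridised together, so the spread between arrays may be technical, and the number of arrays limits the precision. In bulk RNA, fewer cells of a type and less RNA per cell cannot be told apart.

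The Sox17 probe went against the labels. Its intensity was 13.6, 11.99, 16.6 and 15.0 in the second set, all labelled Sox17(+), against a lowest of 30.5, a median of 46.6 and a highest of 67.3 in the first set, a log2 difference of -1.03 ± 0.11 (SE). A dimmer Sox17 probe, not tested here, lay under the background limit of 10.6 on all 4 second-set arrays, against 6.11 to 42.9 in the first set. Within arm B the brighter probe read 16.6 and 15.0 in the second set, against 60.6 and 65.3 in Sox17(-) 4 and 5 and 67.3 in Sox17(+) 1. The second set thus had the lower signal on every array, although nothing here says whether this probe reads the transgene. The arrays are named by their titles throughout and no direction is drawn from the treatment.

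Several genes that part the sets belong to the integrated stress response. In that response, kinases that sense amino acid shortage, unfolded protein or other stress phosphorylate the initiation factor eIF2, translation of the transcription factor ATF4 goes up, and ATF4 switches on genes for amino acid synthesis, amino acid import and tRNA charging. ATF4 binds, with a C/EBP partner, composite sites found upstream of many of its targets. ES cells also depend on a network of pluripotency factors, in which Klf4, Klf2 and Tbx3 respond to the cytokine and inhibitor conditions of the medium.

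The promoter windows of 3 genes of the ATF4 list, picked because they hold a match to a composite site and are the well-expressed members with the largest differences that do, are printed, from RefSeq on GRCm38.p6, from 250 bases before to 50 after the start. Capitals mark the only match to the composite site TGATGNAA, searched on both strands, so that its reverse complement reads TTNCATCA. Chac1 lies at chr2:119350992-119351291 on the plus strand, Nupr1 at chr7:126625421-126625720 on the minus strand and Vldlr at chr19:27216770-27217069 on the plus strand.
Chac1: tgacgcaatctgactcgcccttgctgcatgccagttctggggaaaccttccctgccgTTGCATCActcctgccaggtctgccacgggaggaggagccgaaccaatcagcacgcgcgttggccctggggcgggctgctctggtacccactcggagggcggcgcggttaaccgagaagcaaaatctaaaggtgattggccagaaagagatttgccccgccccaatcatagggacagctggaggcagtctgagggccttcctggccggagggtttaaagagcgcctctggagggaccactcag
Nupr1: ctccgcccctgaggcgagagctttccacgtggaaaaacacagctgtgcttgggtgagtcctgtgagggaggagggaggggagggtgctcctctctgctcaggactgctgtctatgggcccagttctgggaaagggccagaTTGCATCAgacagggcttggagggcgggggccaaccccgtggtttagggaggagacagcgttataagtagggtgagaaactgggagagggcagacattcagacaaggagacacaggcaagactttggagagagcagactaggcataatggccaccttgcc
Vldlr: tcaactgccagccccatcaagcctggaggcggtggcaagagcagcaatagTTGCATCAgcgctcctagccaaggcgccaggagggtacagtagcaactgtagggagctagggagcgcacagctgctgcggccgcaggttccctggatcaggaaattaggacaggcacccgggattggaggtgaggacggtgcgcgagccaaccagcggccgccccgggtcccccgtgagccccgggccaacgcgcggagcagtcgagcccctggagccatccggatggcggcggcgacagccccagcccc
Each of the 3 holds TTGCATCA, while the other window of Vldlr and that of Gpt2, which also differed by over 1 on the log2 scale, hold no match. Of the 25 measured genes of the ATF4 list, 21 had a window, and 7 of them held the letters (Asns, Atf3, Chac1, Fgf21, Nupr1, Trib3 and Vldlr), in 7 of 24 windows or 29.2%. Among all 32851 windows, 1304 or 3.97% held them. A match is a description of the letters only, and members with a match differed between the sets by as little as -0.25 (Asns) and as much as -3.02 (Chac1).

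Values are the background-subtracted intensities that the authors deposited, and differences are on the scale log2(intensity + 16), adjusted for the arm, which understates the change of dim genes. A probe counted as tested when it stood above 10.6, the limit set from the spread of the negative values, on at least 5 of 10 arrays. Of 25697 probes, 14985 passed, for 10087 named genes, and a gene was called well expressed when its brightest tested probe averaged at least 100 over all arrays, which 6391 genes did. A gene parted the sets when the 4 and the 6 arrays of its brightest probe did not overlap and differed by at least 2-fold. Across these 6391 genes the median difference was -0.01, and 2239 genes, 35% of them, had sets that did not overlap at any size.

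By this rule 68 of 6391 well-expressed genes (1.06%) were lower and 17 (0.266%) were higher in the second set, 85 in all (1.33%). These shares are the background against which the counts of gene groups stand, and they use the same values that chose the sets. The 3 genes just inside the 2-fold limit were Scara3, Aspg and 1110017D15Rik, each at -1.002, and the 3 just outside were Rhbdd1 at -0.998, Rrp8 at 0.998 and Mrm3 at 0.997. Dim tested probes, those averaging under 100, passed the limit more often, with 307 of 6022 (5.1%) against 133 of 8963 well-expressed probes (1.48%).

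The largest difference of a well-expressed gene belonged to Chac1, a glutathione-degrading enzyme and a classic ATF4 target. Its intensity was 233.9, 234.1, 203.3 and 201.7 in the second set, against a lowest of 1651, a median of 1848 and a highest of 2235 in the first, a difference of -3.02 ± 0.07. The sets lay far apart and the 4 second-set arrays lay close together, in both arms (-3.02 in arm A and -3.01 in arm B). Chac1 has 1 tested probe, so no other probe could be set beside it.

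Vldlr, the very low density lipoprotein receptor and a known ATF4 target, was the largest difference with several probes. Its brightest probe read 77.3, 100.3, 19.8 and 18.9 in the second set, against 280.3, 335.7 and 377 as lowest, median and highest in the first, a difference of -2.54 ± 0.24. The other 2 tested probes gave -2.43 ± 0.20 and -2.45 ± 0.16, and none of the 3 overlapped. Sox17(+) 4 and 5 were the lowest arrays on each probe.

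Nupr1, a small stress-induced chromatin protein, read 338.4, 348.5, 278.3 and 267.7 in the second set, against 723.2, 823.4 and 921.8 in the first, a difference of -1.36 ± 0.09. Gpt2, a mitochondrial alanine aminotransferase, read 181.9, 173.9, 169.5 and 146.2, against 386.0, 434.6 and 487.8, a difference of -1.31 ± 0.08. Cth, which makes cysteine from cystathionine, read 191.6, 181.7, 199.1 and 210.5, against 379.9, 419.0 and 483.9, a difference of -1.06 ± 0.07. In these 3 genes every second-set array lay below every first-set array.

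Dimmer members of the list went the same way. Atf3, a transcription factor of the stress response, read 14.5, 15.4, 6.02 and 8.21 in the second set, against 31.9, 43.3 and 51.7 in the first, a difference of -1.13 ± 0.10, and 2 of the 4 second-set arrays lay under the background limit. Aldh1l2, a mitochondrial folate enzyme, read 53.4, 60.8, 40.4 and 25.4 on its brighter probe, against 84.5, 107.5 and 141.5, a difference of -1.06 ± 0.08, and its dimmer probe gave -0.82. Both genes average under 100 and so stand outside the well-expressed count.

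In the list of ATF4 stress genes as a whole, 25 of 28 members were measured, and 16 were lower without overlap and none higher. Among all 10087 tested genes 18.6% were lower and 16.2% higher without overlap. Of the 25, 7 passed 2-fold lower, where 1.89% of tested genes did and 1.12% passed 2-fold higher. The list's median was -0.51 beside -0.02 for all tested genes, and 24 of 25 members were negative. The summed intensity of the 25 members was 31325 to 32806 on second-set arrays, against 42145 to 47996 on first-set arrays, so the sums did not overlap. The brightest members, Asns, Slc7a5, Psat1 and Slc7a3, averaging 8929, 8907, 6996 and 5815, weigh most in these sums. Of them Asns and Slc7a3 overlapped. Which members respond was uneven. Mthfd2, a mitochondrial folate enzyme, was at -0.85 ± 0.07 and Sesn2 at -0.82 ± 0.11 on its brighter and -0.73 on its other probe, while Psat1 of serine synthesis was at -0.51 and Atf4 itself at -0.42 ± 0.09. Asns, asparagine synthetase and the standard reporter of this pathway, overlapped on all 3 probes, at -0.25, -0.37 and -0.04. Trib3, a pseudokinase induced by ATF4, was at -0.29 ± 0.08. Ddit3, which encodes the factor CHOP, was at -0.05 ± 0.06 on its brighter probe and at 0.38 ± 0.09, higher without overlap, on its other. Pck2, Psph and Slc7a11 lay under the limit on all 10 arrays.

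**Figure D1:**
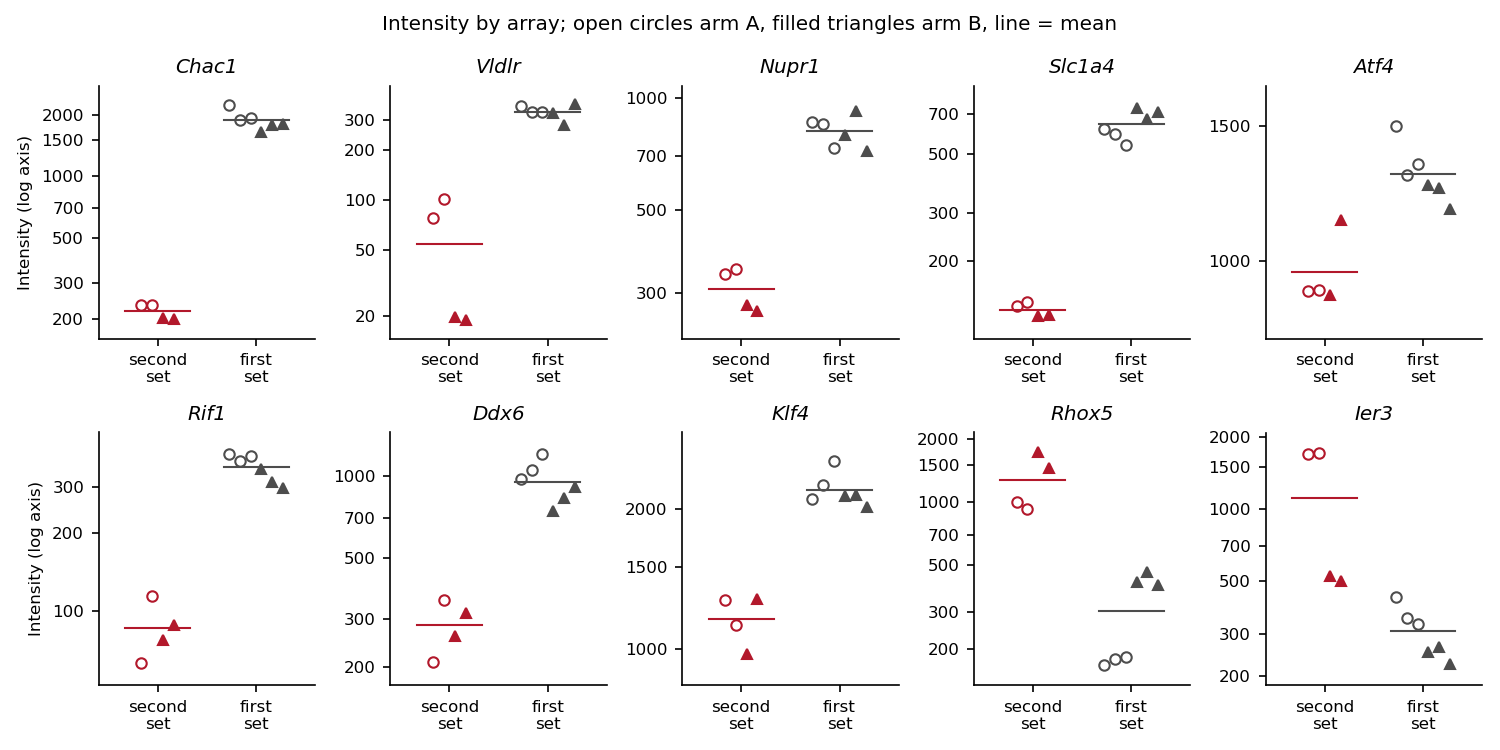
Intensity of the genes named as marking the sets and other parting genes, 1 point per array, on a log axis, with the second set left of the first. The second-set arrays of Chac1 lie between 201.7 and 234.1, all below the first set's lowest of 1651, and those of Rhox5 lie between 929.0 and 1732, all above the first set's highest of 464.7.

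Among 21 measured amino acid carriers 2 passed 2-fold, both lower, and none of 19 charging enzymes did. Of all tested genes 1.89% passed 2-fold lower and 1.12% higher. Slc1a4, a neutral amino acid exchanger, read 135.6, 140.8, 125.2 and 125.8 in the second set, against 538.1, 644.5 and 741.8 in the first, a difference of -2.15 ± 0.09. Slc6a9, the glycine transporter, read 85.0, 78.7, 77.5 and 72.7, against 231.5, 306.2 and 356.0, a difference of -1.73 ± 0.10. Both were lower on every second-set array, whereas Slc7a3, Slc38a2 and Slc3a2 overlapped, at -0.19, -0.17 and -0.16. The list counts that follow stand beside 18.6% of all tested genes lower and 16.2% higher without overlap. In a list of amino acid carriers put together after the values were seen, 9 of 21 measured members were lower and 2 higher without overlap. Slc1a4 and Slc6a9 count among the 9. The list's median, -0.39, is the value of Slc1a1, a dim gene averaging 15.0 that overlapped. The 2 higher ones were Slc7a6 at 0.37 and Slc38a4 at 0.63. Among 19 measured aminoacyl-tRNA synthetases 8 were lower and none higher without overlap, with a median of -0.16 and none past 2-fold. The largest of these was the leucine enzyme Lars at -0.64, followed by Yars at -0.60, a dim gene averaging 29.3, and Aars at -0.55. Kars was at 0.23 with overlap. The genes of the unfolded protein response in the endoplasmic reticulum gave 2 lower and 0 higher of 15, with a median of 0.06.

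Rif1, which controls replication timing and double-strand break repair, read 63.5, 114.7, 77.3 and 88.2 in the second set, against 297.6, 364.0 and 400.9 in the first, a difference of -1.88 ± 0.12 on its 1 tested probe. Jund, an AP-1 subunit, read 42.6, 46.4, 46.6 and 70.0, against 172.7, 218.2 and 283.2, a difference of -1.83 ± 0.14. Zc3h13, a subunit of the writer complex for N6-methyladenosine in RNA, read 518.0, 1103, 386.4 and 716.0, against 1863, 2422 and 2540, a difference of -1.82 ± 0.20. In all 3 the sets were apart, and Zc3h13 varied nearly 3-fold among the 4 second-set arrays.

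Further single-probe genes were lower, with varied functions. Bach1, a heme-binding repressor of oxidative stress genes, read 30.9, 77.1, 55.4 and 72.3 in the second set, against 241.0, 261.5 and 295.5 in the first, a difference of -1.93 ± 0.16. Baz2a, a subunit of a nucleolar remodelling complex, differed by -1.64 ± 0.23, the chromatin organiser Satb1 by -1.37 ± 0.09 and Nfatc3, a calcium-responsive transcription factor, by -1.44 ± 0.10. Zc3h6, a zinc finger gene, differed by -1.94 ± 0.09 and Ovgp1, an oviduct glycoprotein, by -2.22 ± 0.15. Eif4ebp2, a repressor of cap-dependent translation, read 555.5, 849.1, 454.0 and 1095 in the second set, against 1583, 1823 and 1952 in the first, a difference of -1.35 ± 0.20.

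The naive pluripotency genes did not move as a group. Klf4 was lower on its brightest probe, at 1274, 1124, 974.7 and 1279 in the second set, against 2021, 2140 and 2534 in the first, a difference of -0.91 ± 0.09. Its other probes gave -0.55 ± 0.09 without overlap and -0.36 ± 0.12 with overlap, so Klf4 passed 2-fold on none. Tbx3 was at -0.77 ± 0.06 and Klf2 at -0.57 ± 0.06, both without overlap. Nanog, at 5109, 5490, 4903 and 6386 against 4735, 5543 and 5835, and Pou5f1, which encodes Oct4, overlapped, with -0.01 ± 0.09 and 0.12 ± 0.08. Among all tested genes 18.6% were lower and 16.2% higher without overlap. Of 13 measured naive pluripotency genes 3 were lower and 1 (Fbxo15) higher without overlap, with a median of -0.01. Of 12 general pluripotency genes 2 were lower, Rif1 and Dppa5a, and 1 higher, Utf1, with a median of -0.02. The ES cell identity of the label therefore stood in both sets, with Pou5f1, Nanog, Zfp42 and Dppa5a well above background on all arrays.

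When all probes of a gene had to go the same way, without overlap and by at least 0.5, the list became short. Of the 85 parting genes 60 have 1 tested probe, and of the 25 with more, 8 had probes that all went one way, all 8 lower in the second set, and 17 did not. The 8 are Vldlr, Ddx6, Cyp27a1, Zmynd8, Ppm1l, Olfm1, Sox7 and Klf6. Ddx6, a helicase of P-bodies that represses and decays mRNA, read 208.6, 351.8, 260.3 and 315.9 in the second set on its brightest probe, against 745.2, 942.0 and 1199 in the first, a difference of -1.70 ± 0.14. Its other probes gave -1.53, -0.87 and -1.30, and on the last all 4 second-set arrays lay under the background limit, which makes it at least 3.18-fold lower there (the first-set mean over that limit). Cyp27a1, the sterol 27-hydroxylase, was at -1.40, -1.48 and -0.77 on 3 probes.

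Zmynd8, a reader of histone marks, was at -1.23 ± 0.11 and -1.69 ± 0.15 on its 2 probes. Ppm1l, a protein phosphatase, was at -1.22 and -0.76, and Olfm1, a secreted glycoprotein, at -1.15 and -0.69. Klf6, a zinc finger transcription factor, read 784.4, 1090.5, 849.9 and 1071 in the second set, against 1759, 1906 and 2092 in the first, a difference of -1.01 ± 0.10 with -0.54 on the other probe. These 8 are those that passed the demand on every probe, and other parting genes had several probes in one direction without passing it: Rtn1 ran from -1.41 to -0.46 over 3 probes, Pcmtd1 from -1.39 to -0.42 over 3 and Pdyn was at -1.73 and -0.48.

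The same demand at 1.5-fold, a lower limit listed as an alternative, gave 43 genes lower and 17 higher among the 184 multi-probe genes of the 217 higher (3.4%) and 361 lower (5.65%) well-expressed genes. Lower ones included Ezh2, the H3K27 methyltransferase, at -0.73 and -0.71, Tnrc6a, a partner of Argonaute in silencing by miRNAs, at -0.65 and -0.84, and Kdm6a, an H3K27 demethylase, at -0.80 and -0.58. Zfhx3, Zfp292, Dab2, Itga5 and B2m were also lower, at -0.95, -0.90, -0.90, -0.78 and -0.80 on their brightest probes. The 17 higher genes include enzymes that modify or cleave RNA. Nsun5, an rRNA cytosine methyltransferase, was higher on 5 of 5 probes, at 0.56 to 1.03, and its brightest probe read 616.8, 641.0, 525.5 and 577.2 in the second set, against 348.0, 378.7 and 423.9 in the first. Dus3l, a dihydrouridine synthase, was at 0.75 to 1.11 on 3 probes, Pus1, a pseudouridine synthase, at 0.82 and 0.71, and Elac2, the tRNA 3'-end ribonuclease, at 0.54 to 0.71 on 3 probes. Aimp2, a scaffold of the multi-synthetase complex, was at 0.82 and 0.54, Eif2b1, a subunit of the exchange factor for eIF2, at 0.81 and 0.86, and Rpa2, a subunit of the single-strand DNA binding complex, at 0.75 and 0.58. None of the 17 higher genes reached 2-fold on its brightest probe.

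**Figure D2:**
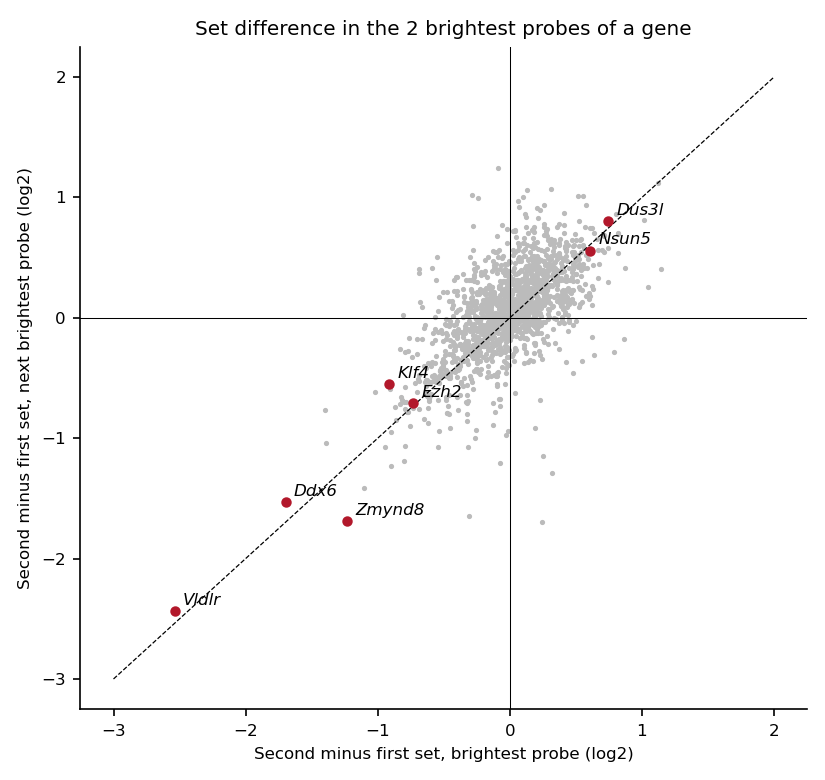
Log2 difference of the next brightest probe against that of the brightest probe, second minus first set, for 1561 well-expressed genes with at least 2 tested probes, each gene a point, with the diagonal dashed. Vldlr, Ddx6, Zmynd8 and Ezh2 were lower on both probes and Nsun5 and Dus3l higher on both, while part of the cloud lies in the quadrants of opposite sign.

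In 1561 genes the 2 brightest tested probes both averaged at least 100, and dimmer second probes were left out of this comparison. The differences of the brightest and the next probe had a rank correlation of 0.621 and the same sign in 1136 (72.8%), with a median gap of 0.17. The points share the same 10 arrays. Pairs on 1 accession gave 0.625 over 1428 genes and pairs on different accessions 0.591 over 133. Of the 25 multi-probe genes past 2-fold, 6 had a probe of opposite sign. Synm, an intermediate filament protein, was at -1.67 ± 0.16 on its brightest probe, at -0.03 ± 0.09 on the second and at 0.72 ± 0.08, higher without overlap, on the third. Tmem63b, an ion channel, read 595.0, 883.7, 612.5 and 782.9 in the second set, against 1907, 2083 and 2201 in the first, a difference of -1.53, and 0.09 ± 0.10 on its other probe. Septin3 gave -1.58 and 0.03, and Clec2e, a lectin, -1.23 and 0.04. Map1b, a microtubule protein, gave -1.09, -0.38 and 0.20. Tardbp, an RNA-binding protein also called TDP-43, gave -1.02 and -0.62 without overlap and 0.05 and 0.44 with overlap on its 4 probes. The part that probe design plays in these gaps was not tested.

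The common control genes Actb and Gapdh behaved differently from each other. Actb, which encodes beta-actin, was at -0.30 and -0.51 without overlap on 2 of its 5 probes and at -0.04, 0.67 and 0.55 with overlap on the others. Gapdh was at 0.03 ± 0.06 and 0.12 ± 0.06, both overlapping.

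Among genes higher in the second set, 13 of the 17 have 1 tested probe and the other 4 (Rbm14, Hdhd2, Rnf41 and Ubxn6) did not meet the demand on all probes. Rhox5, an X-linked homeobox gene of the reproductive cluster, read 1001, 929.0, 1732 and 1447 in the second set, against 168.6, 294.5 and 464.7 in the first, a difference of 2.10 ± 0.10. Its neighbour Rhox9 read 154.3, 130.3, 327.8 and 298.1, against 40.4, 59.5 and 86.0, a difference of 1.59 ± 0.16. Of 7 measured germline and 2-cell genes 4 were higher and 0 lower without overlap, beside 16.2% and 18.6% of all tested genes. Beside Rhox5 and Rhox9 the higher ones were Tex101 at 0.94 and Stk31 at 0.30. Their median, 0.94, is the value of Tex101, a dim gene averaging 16.5. Its first-set arrays read 1.15 to 7.49, under the background limit, except for 19.1 in Sox17(-) 4. Rhox6 at 1.14, averaging 25.6, overlapped. Dazl and Ddx4, defining genes of germ cells, overlapped at 0.20 and 0.17. Mael, Sycp3, Tcstv3, Usp17la and Zfp352 lay under the limit on all 10 arrays. The summed intensity of the 7 was 1441 to 2472 on second-set arrays, against 487.0 to 825.0 on first-set arrays, and Rhox5 was the brightest of the 7 over all arrays.

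Ier3, an immediate early gene, read 1700 and 1714 in Sox17(+) 2 and 3 and 523.6 and 501.4 in Sox17(+) 4 and 5, against 225.4, 297.1 and 427.9 in the first set, a difference of 1.59 ± 0.19. The 2 arms of the second set thus differed over 3-fold for this gene. Esam, an endothelial adhesion protein, was at 1.52 ± 0.10, Ccdc124 at 1.25 ± 0.11 and Aqp3, a water and glycerol channel, at 1.23 ± 0.09. Slc40a1, the iron exporter ferroportin, read 178.9, 165.8, 336.3 and 248.5 in the second set, against 71.5, 88.7 and 107.3 in the first, a difference of 1.20 ± 0.09. Pelp1, of the rixosome, and Ube2a, a ubiquitin-conjugating enzyme of DNA repair, were each at 1.09. All of these were higher on every second-set array.

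Near the background, the largest differences were of another kind. Ulk4 read 152.4, 138.9, 159.5 and 78.0 in the second set, against 4.75, 8.20 and 13.4 in the first, a difference of 2.55 ± 0.16, and 5 of 6 first-set arrays lay under the limit. H2-Q1 and Tssk2, a class I histocompatibility gene and a testis kinase, were at 1.96 and 1.93. Olfr536, at 1.86, belongs to the receptors whose background chose the sets. These genes average under 100, and their lower set lies at the level of the background itself.

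**Figure D3:**
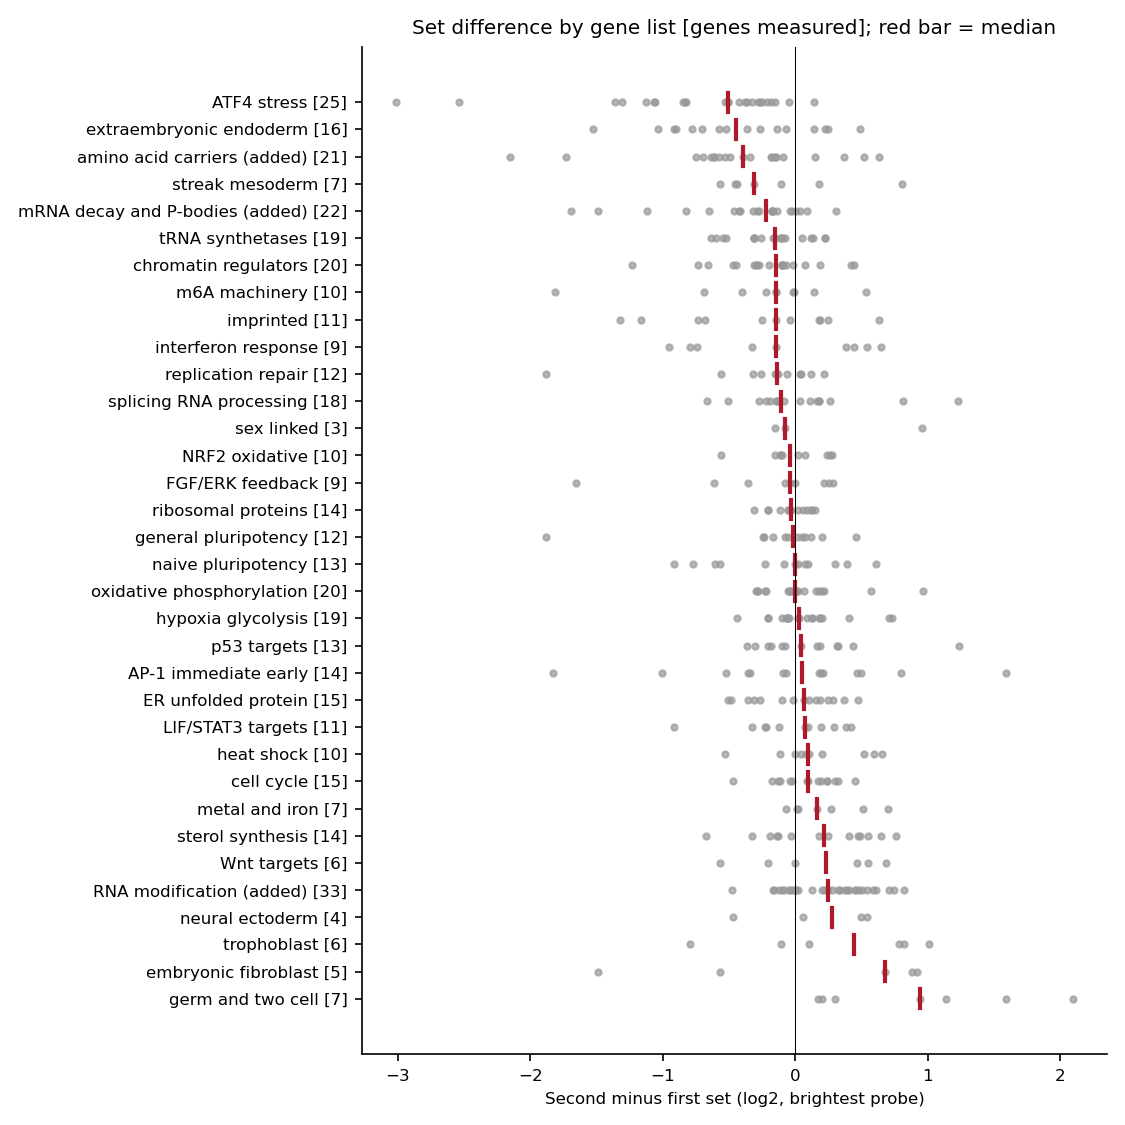
Log2 difference, second minus first set, of the brightest probe of each measured gene in each gene list, with the median as a red bar and the number of measured genes in brackets. The ATF4 stress list has the lowest median, -0.51, and the germ and 2-cell list the highest, 0.94, which is the value of the dim gene Tex101. The lists of pluripotency, ribosome and oxidative phosphorylation genes lie near 0.

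The other lists are read against the 18.6% of tested genes lower and 16.2% higher without overlap. Of 19 hypoxia and glycolysis genes none parted at any size, with a median of 0.03. Of 14 ribosomal protein genes 3 were lower and 1 higher without overlap, with a median of -0.04, and of 20 oxidative phosphorylation genes 4 were lower and 3 higher, with a median of -0.00. Of 13 p53 targets 2 were lower and 2 higher, of which Eda2r, a death receptor, was at 1.24 near the background. Of 20 chromatin regulators 7 were lower and 2 higher without overlap, with a median of -0.15, among them Zmynd8, Ezh2, the acetyltransferase Ep300 at -0.66 and Suz12 at -0.47, while Eed, the third core subunit of the same complex as Ezh2 and Suz12, overlapped at 0.08. Of 14 sterol synthesis genes 5 were higher, led by Mvd at 0.76 and Fdps at 0.65, and 1, the regulator Srebf2 at -0.67, was lower. In a list of RNA modification enzymes made after the values were seen, 13 of 33 were higher and 1, Nsun4 at -0.48, lower without overlap, with a median of 0.25. Nsun5, Dus3l, Pus1 and Elac2, named above among the agreeing higher genes, count among the 13, so this count is no independent support.

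Markers of other cell types that such cultures could hold moved with the sets in part. Of 16 measured extraembryonic endoderm genes 5 were lower and 1 higher without overlap, beside 18.6% and 16.2% of all tested genes. Their median was -0.45, at -0.62 in arm B and -0.19 in arm A, and their summed intensity was 4209 to 7950 in the second set, against 4244 to 12469 in the first. Sox7 was at -1.03 and Dab2 at -0.90, Gata6 at -0.70 and Pdgfra at -1.52 overlapped, and Afp and Ttr lay under the limit on all arrays. Of 13 fibroblast markers 5 were measured, 3 higher (Vim, Acta2 and Twist1) and 2 lower (Thy1 at -1.49 and Prrx1), with a median of 0.68. Their sums were 462.4 to 630.5 in the second set, against 403.4 to 632.3 in the first, and Col3a1, Dcn, Lum and Postn lay under the limit on all arrays. Trophoblast markers gave 1 lower (Tfap2a at -0.79) and none higher of 6 without overlap, with a median of 0.45. Krt18 at 1.00, Krt8 at 0.82, Cdx2 at 0.79 and Tfap2c at 0.11 overlapped, as did Eomes at -0.11. Cdx2, Tfap2a and Eomes were dim, averaging 16.5, 29.8 and 30.0. Their sums were 3955 to 4680 against 3134 to 4123, and Tfap2c, averaging 3156, was the brightest of the 6. Elf5, Esx1, Gata3, Hand1 and Plet1 lay under the limit on all arrays. Of 7 streak and mesoderm markers 3 were lower and 1 higher, with a median of -0.32. All 7 were dim, averaging from 10.4 (Mixl1) to 36.2 (Snai1). Their sums were 110.3 to 151.2 against 146.1 to 157.0, and Gsc and Lhx1 lay under the limit. Of 4 neural markers 1 (Map2) was lower and 1 (Ncam1, averaging 19.5) higher, with a median of 0.27. Their sums were 261.5 to 354.0 against 288.1 to 340.4, and Pax6 lay under the limit. The part of these cells in the set difference was not tested.

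Differences also moved with the length of the gene in the genome. The 6387 well-expressed genes with a span in the RefSeq table were split into 5 groups of equal size by span, from transcription start to end. The median difference was 0.09 in the shortest group (0.107 to 7.34 kb), then 0.06, 0.00 and -0.05, and -0.14 in the longest (53.1 to 1297 kb). Genes at least 1.5-fold higher without overlap made up 6.18% of the shortest and 1.64% of the longest group, and genes at least 1.5-fold lower 2.97% and 9.86%. The rank correlation over all genes was -0.23, a description over genes that share 10 arrays. The 17 agreeing higher genes had a median span of 8.92 kb and the 43 agreeing lower genes 37.9 kb, beside 20.5 kb for all. Median intensity in the 5 groups was 718, 590, 599, 540 and 461, so the longest genes were also the dimmest. In 5 groups by intensity the median differences lay between -0.02 and -0.01, but the shares past 1.5-fold went down with intensity, to 0.861% higher and 1.17% lower in the brightest group, from 5.79% and 9.70% in the dimmest. The parts of span and intensity were not separated beyond the alternative limited to bright genes.

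**Figure D4:**
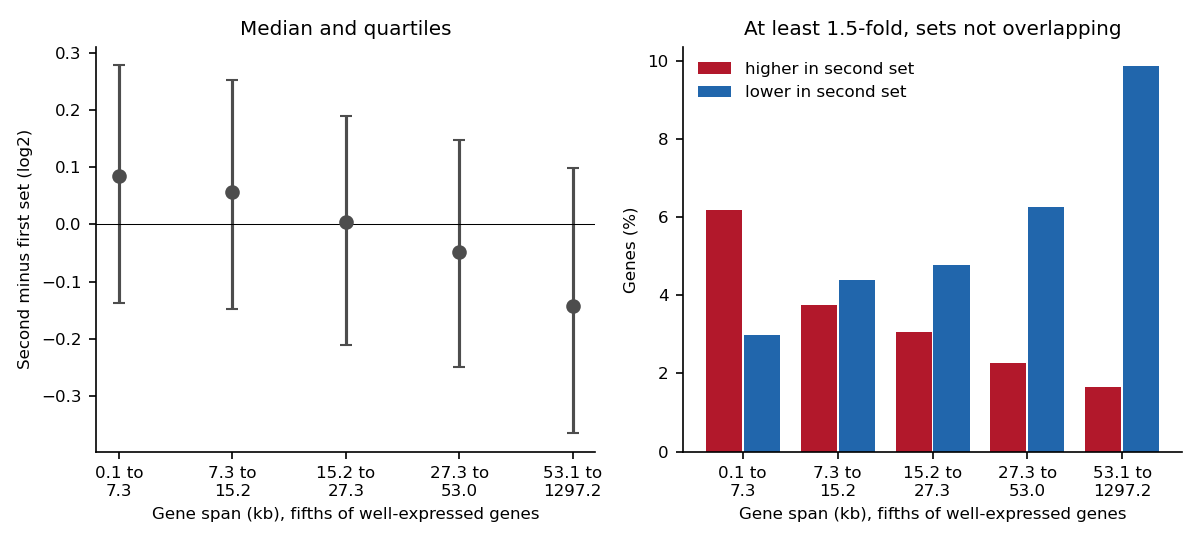
Left, the median log2 difference, second minus first set, with bars from the lower to the upper quartile, in 5 equal parts of the well-expressed genes by gene span in kb. Right, the percent of genes in each part at least 1.5-fold higher or lower without overlap, from 6.18% higher and 2.97% lower in the shortest to 1.64% and 9.86% in the longest.

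By chromosome the median difference of well-expressed genes ran from -0.07 on X (193 genes) to 0.05 on chromosome 5 (421 genes), so no chromosome moved as a whole. The probe of Uty, a Y-linked gene, was dim and read 50.4, 51.3, 54.4 and 45.6 in the second set, against 14.1, 19.1 and 22.5 in the first, while the Y-linked genes Eif2s3y and Kdm5d lay under the limit on all 10 arrays.

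The set difference went largely the same way in both arms, whose comparisons use no array in common. Over 6391 well-expressed genes the differences in arm A and arm B had a rank correlation of 0.819 and a Pearson correlation of 0.846. Sets and arms were both chosen with values of these arrays known, which favours such likeness, so it is a description and no replication. All 85 parting genes had the same sign in both arms, which the demand that the sets not overlap favours, and 66 were at least 2-fold in each. The difference of the arms was fitted as a set by arm interaction in limma. It passed the threshold for 8 of 14985 tested probes (0.0534%) after Benjamini-Hochberg adjustment, with adjusted p of 0.0182 to 0.0496, and 1729 (11.5%) had an unadjusted p under 0.05. Since the arms were set with results of these arrays known, these p-values are no test independent of the grouping, and the genes below are given as values. Leaving out any one of Sox17(+) 2, 3, 4 and 5 or Sox17(-) 2 left 0 calls by limma, with 1433 to 1989 probes at an unadjusted p under 0.05.

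Vldlr, already lower in both arms, was at -3.28 in arm B and -1.79 in arm A. Sox7, an endoderm transcription factor of the same family as Sox17, was at -1.58 in arm B and -0.49 in arm A on its brighter probe, and its other probe gave -1.62 and -0.33. In the first set its brighter probe read 215.5, 225.4 and 190.3 in arm B and 107.2 to 116.3 in arm A. Ier3 was at 1.01 in arm B and 2.17 in arm A.

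In 3 genes the sets overlapped while the arms went apart. Emp1, a membrane protein of epithelia, was at -1.03 in arm B and -0.07 in arm A, and read 290.8 and 301.4 in Sox17(+) 4 and 5, against 607.1 to 651.5 in the first-set arrays of arm B. Tgfbi, an extracellular matrix protein, was at -1.10 in arm B and -0.02 in arm A, with 763.4 to 887.3 in the first-set arrays of arm B. The gene 2210409E12Rik was at -0.82 in arm B and 0.90 in arm A. Among the probes whose interaction passed the threshold, only this one and the one without a gene name had opposite signs in the arms.

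**Figure D5:**
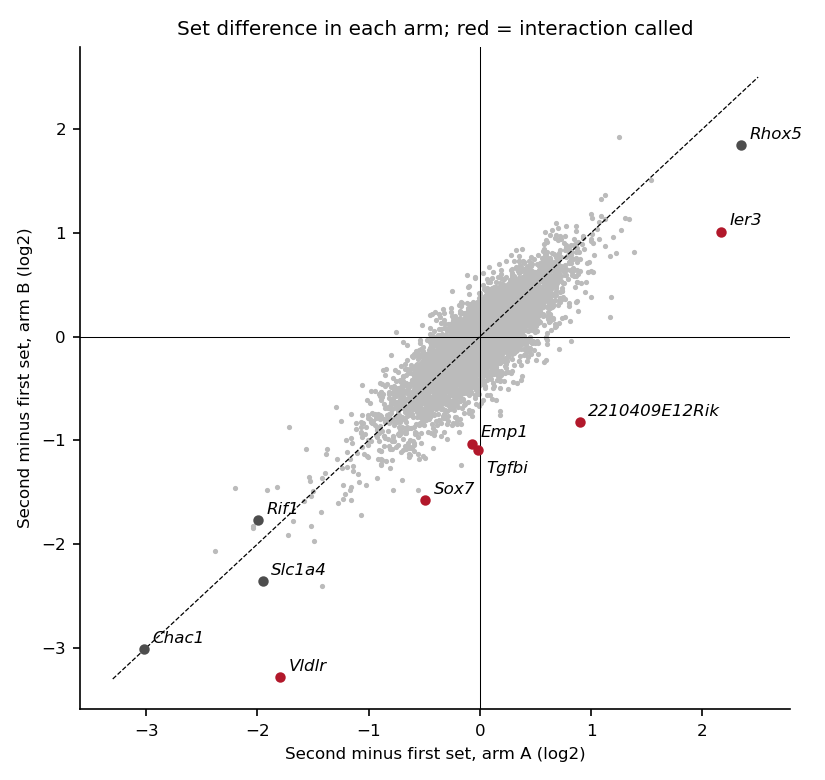
Log2 difference, second minus first set, in arm B against arm A for 6391 well-expressed genes, with the diagonal dashed and genes whose interaction passed the threshold in red. Chac1 lies on the diagonal at -3.02 and -3.01, and Vldlr, Sox7, Emp1, Tgfbi, Ier3 and 2210409E12Rik lie below it.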

How the data were processed

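Biotin-labelled cRNA made with a MessageAmp kit was hybridised to Illumina arrays, per the labels' protocols. The deposited values are linear intensities that the authors had background-subtracted (25.5% lie below 0) and normalised, since the upper quartile is 250.0 on every array and the medians are 21.7 to 22.0. The software was not given in the sources used here. A table with 20 columns was not used, because its column names match no sample. Depth has no meaning for arrays, and their number limits the precision.

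Negative values were set to 0, 16 was added and log2 taken. The background limit of 10.6 is the 0.95 quantile of a normal distribution with the SD of the mirrored negative values, 6.45. Differences came from limma 3.58.1 in R 4.3.3 (lmFit with set and arm), and their standard errors use the variance moderated by eBayes. The interaction also came from eBayes, with Benjamini-Hochberg adjustment over 14985 probes. The fits were tested on simulated data. Of 25697 probes 23978 had 1 symbol in GEO's platform annotation, 1719 had none, and 23962 were matched by Entrez ID to the RefSeq table of GRCm38.p6, which also gave spans and promoters. Tables and figures were made with Python 3.11.15 and matplotlib 3.10.9.

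The members, sets, arms, markers and gene lists were chosen with earlier results of these data known, and the lists of amino acid carriers, RNA modification and mRNA decay, with some further genes, after the values were seen. Genes were named by rule: the 4 markers, up to 12 in each direction with all probes agreeing, the 5 largest single-probe genes in each direction, the 6 with the widest gap between probes, the 4 largest near-background genes and up to 3 of each list. Title numbers were checked for pairing: deviations of arrays sharing a number correlated at 0.29 to 0.31 for numbers 2 to 5, which each lie in 1 arm, and at -0.06 for number 1, which lies in both arms. The rule asked for over 0.1 in every pair, so the numbers were not taken as pairs. Alternatives changed the pseudocount, filter, normalization, limits, block, and left out each array.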

Additional observations from a re-analysis of the deposited data

Results flagged for a closer look

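Among 308 groups of a named gene in 1 set, 9 held an array farther from the others than the Dixon limit allows, and chance alone does so in about 1 in 20. In the second set, Ovgp1 read 38.2 in Sox17(+) 3, against 13.0 to 15.5 in the other 3 arrays, Jund 70.0 in Sox17(+) 5, against 42.6 to 46.6, and Atf4 1130.02 in Sox17(+) 5, against 901.8 to 914.9. In the first set, Prdx1 read 17285.5 and Gapdh 17628.5 in Sox17(-) 3, Eda2r 13.5 in Sox17(-) 5, Aimp2 946.6 in Sox17(+) 1, Rpa2 900.4 in Sox17(-) 2 and Tex101 19.1 in Sox17(-) 4. For Ovgp1, Jund, Atf4, Eda2r, Aimp2, Rpa2 and Tex101 the single array did not bring the sets to overlap.

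The set difference itself was larger or smaller in arm B than in arm A, by the interaction test in limma, for 8 probes. Arm B minus arm A was -1.49 for Vldlr, -1.09 and -1.28 for the 2 probes of Sox7, -0.96 for Emp1, -1.08 for Tgfbi, -1.16 for Ier3, -1.72 for 2210409E12Rik and -1.42 for a probe without a gene name. All 8 are negative. The arms were set with results of the same arrays known, so this is no test independent of the grouping.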

How the results depend on the processing

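No named gene that parted the sets changed direction under an alternative, which the demand that the sets not overlap favours. The 32 well-expressed probes higher in the second set became 8 with a pseudocount of 64, 376 at a difference of 0.58 and 50 at a mean of 50, and the 101 lower became 54 and 485 under the first 2 of these. The count of genes higher with all probes agreeing, 0, was 1 with a pseudocount of 4, 17 at 0.58 and 1 at a mean of 50, and 0 to 1 when 1 array was left out, 1 without Sox17(+) 3. The count lower, 8, was 4 with a pseudocount of 64, 43 at 0.58, 13 at a mean of 50 and 3 at a mean of 250, and 6 to 13 with 1 array left out, 13 without Sox17(+) 3. The 8 interaction calls were 35 without the filter on dim probes, 17 and 118 with pseudocounts of 4 and 64, and 0 to 5 with 1 array left out. The median of the ATF4 list, -0.51, was -0.40 without the filter, -0.41 with a pseudocount of 64, -0.42 after quantile normalization and -0.52 to -0.44 with 1 array left out. The difference between the longest and the shortest of 5 groups of genes by span, -0.23, was -0.17 among genes averaging at least 1000, an alternative chosen after seeing the data. The median of chromosome 5, 0.05, was 0.029 to 0.053 with 1 array left out. The cause of these changes was not tested.

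Of the 85 parting genes 44 kept their call with a pseudocount of 64 and 75 to 83 with 1 array left out. With the title number as a replicate block, 27 probes were higher, 98 lower and 79 of the 85 genes remained, and the ATF4 median was -0.49, and the numbers were not taken as pairs. Among 57 named parting genes all kept their sign under every alternative run. Since these genes were picked for sets that do not overlap, a change of sign was unlikely from the start, and this is no independent support. Signals near the limit of 10.6 cannot give a fold, only a bound.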

Other observations

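Counts of further gene lists are read against the shares of all tested genes, 18.6% lower and 16.2% higher without overlap. In a list of mRNA decay and P-body genes made after the values were seen, 5 of 22 measured members were lower and none higher without overlap, with a median of -0.23. Beside Ddx6 these were Tnrc6b at -1.49, Lsm1 at -1.12, Xrn1, the cytoplasmic 5'-to-3' exonuclease, at -0.83 and Tnrc6a at -0.65. Ddx6 and Tnrc6a, named above among the agreeing lower genes, count among the 5, so this count is no independent support. Lsm1 averaged 17.8, near the background limit. The other tested probe of Tnrc6b overlapped, at -0.21 ± 0.09. Against the same shares, of 10 measured genes of the N6-methyladenosine machinery 3 were lower and none higher without overlap, Zc3h13, Ythdf1 at -0.40 and Mettl14 at -0.15, while the catalytic subunit Mettl3 overlapped at -0.15.

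Among 14 measured immediate early genes 4 were lower, led by Jund and Klf6, and 3 higher, led by Ier3, with a median of 0.05, so that members of this list lay at both ends. Of 11 measured imprinted genes Grb10, an adaptor that dampens insulin signalling, was at -1.32 and Peg3, averaging 32.2, at -1.16, and Slc38a4 was at 0.63, all without overlap. Of 10 heat shock genes 3 were higher, Hsph1 at 0.65, Dnajb1 at 0.59 and Dnaja1, averaging 13.7 near the background limit, at 0.52. Bag3, a co-chaperone of the same response, was lower at -0.53 and Hspa8 overlapped at -0.00. Among 9 genes of FGF and ERK feedback Spred2, averaging 47.0, was at -1.65 and Spred1 at -0.36, both lower, and Dusp6, an ERK phosphatase, was at 0.22, higher without overlap.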
